A study of Arabidopsis thaliana with 9 samples.

Results

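Single H3K4me3 peaks that lay across neighbouring genes were taken from the peak lists of 12-day-old Arabidopsis thaliana seedlings. H3K4me3, histone H3 trimethylated at lysine 4, had been mapped by chromatin immunoprecipitation and sequencing in 3 genotypes with 2 libraries each. These were the wild type of ecotype Col-0 and the mutants jmj28-2 and atx1/2, both labelled as ecotype Col-0, all grown on 1% sucrose under 16 h of light and 8 h of dark at 23 °C. A further 3 samples, made with an antibody to histone H3, 1 per genotype, were not analysed here. Nothing in the labels tells whether both libraries of a genotype derive from independent cultures, so every p-value measures only the spread among these 6 libraries, which may be technical.

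Peaks that overlapped between the 6 lists were merged, which gave 14670 regions on chromosomes 1 to 5. A shared peak was a region with exactly 1 peak in each library, a Col-0 mean length of 1300 to under 4000 bp, and at least 200 bp of overlap with each of 2 or more protein-coding genes. This rule found 3715 regions, 25.3% of all regions and 30.0% of the 12387 regions of the same length window with exactly 1 peak per library. Of the latter, 8519 lay on exactly 1 gene and are called single-gene peaks below. The shared peaks were thus chosen by measured values, the number of peaks per library, the Col-0 length and the overlap with genes, and these are given as a description. The overlap was counted on the merged region, the union of the 6 libraries. In 3096 of the 3715 shared peaks each library by itself reached 200 bp on 2 genes, and in the other 619 at least 1 library did not. Some of those 619 entered through the genotype in which the peak was long and therefore had to differ between genotypes, and for that reason the counts of called lengths and edges are also given for the 3096.

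H3K4me3 lies mainly over the 5′ part of transcribed genes, where it is set by methyltransferases of the Trithorax and SET1 type. ATX1 and ATX2 are such methyltransferases of Arabidopsis, and JMJ28 belongs to the JmjC class of proteins, whose known enzymes remove methyl groups from histones. In a compact plant genome, neighbouring genes often lie close enough for the chromatin marks of their ends to meet. A peak caller joins adjoining signal into 1 interval, so 1 peak can belong to more than 1 gene. The gene table used here gives no strand, and which ends of the genes faced each other was therefore not analysed.

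Across the 6 libraries the lists held 14291 to 14493 peaks on chromosomes 1 to 5, with a median length of 1801 to 1858 bp. Shared peaks made up 25.6% to 26.0% of the peaks and 29.1% to 29.4% of the covered bp. Depth is unknown, because the lists hold no read counts, and no counting interval can be given. The gene for JMJ28, which the gene table names B160, carried a single-gene peak in all 6 libraries, as did ATX1, and a peak says nothing on whether a mutation is present. Of 5 green-tissue markers, RBCS1A, RBCS1B, PSAF and LHCB2.1 had peak bp in all 6 libraries and LHCB1.1 had none. No seed-storage marker of 5 had 200 bp of peak, although the oil-body gene OLEO1 had 100 to 176 bp. Of the pollen markers, VGD1 had none, and PPME1 had 263 to 349 bp within a peak it shared with SHW1.

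Most shared peaks belonged to a pair of genes. Exactly 2 genes were covered in 3390 shared peaks, 3 genes in 311, 4 genes in 13 and 5 genes in 1. Together they held 7160 genes, of which 2832 have a symbol in the gene table, and 609 genes lay in 2 shared peaks. In 3638 shared peaks both leading genes were direct neighbours among the protein-coding genes. The region with 5 genes, on chromosome 1 from 20802124 to 20804978 (TAIR10, as are all coordinates here), covered AT1G55675, PSAG, AT1G55673, AT1G55680 and AT1G55660. PSAG, which encodes a subunit of photosystem I, was covered over 780 bp in all 6 libraries. Shared peaks made up 23.3% of the regions on chromosome 2 and 26.5% of those on chromosome 3, the lowest and the highest share of the 5 chromosomes.

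Shared peaks fell into a shallow and a deep kind. The leading gene of a peak was the gene with the most bp under it, averaged over the 6 libraries, and the second gene had the next most. Over the leading gene, Col-0 peaks had a median of 1373.5 bp (interquartile range 1232 to 1556). Over the second gene the bp had 2 modes, with 605 peaks at 200 to under 300 bp, only 105 at 700 to under 800 bp, and 318 at 1200 to under 1300 bp. A division at 750 bp, chosen after these values were seen, put 2101 peaks on the shallow side and 1614 (43.4%) on the deep side. Only 235 lay within 100 bp of it. The rule's minimum of 200 bp leaves out shallower overlaps, so where the lower mode begins is set by the rule. With a minimum of 1 bp there were 4673 shared peaks.

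**Figure D1:**
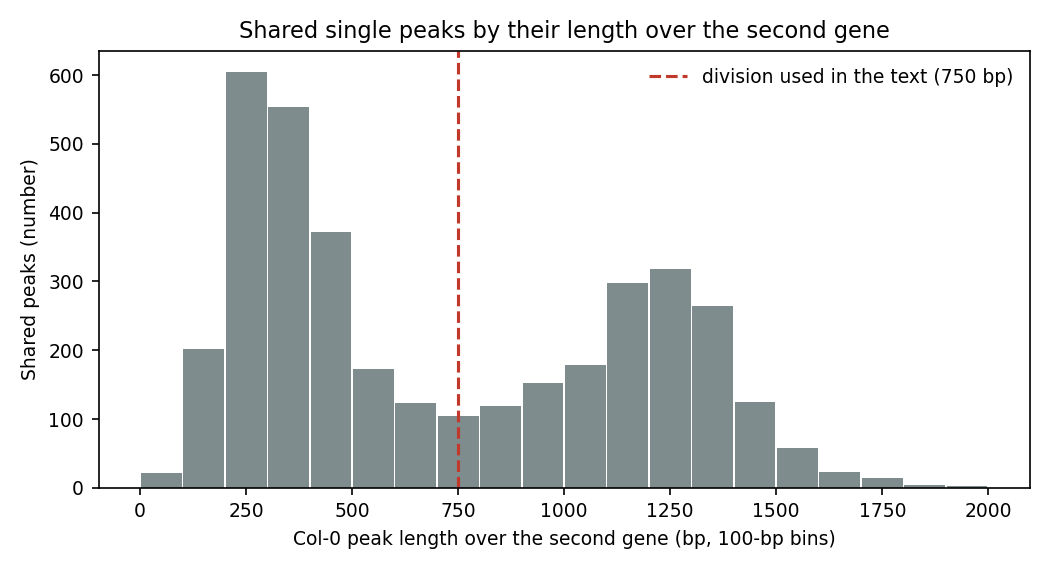
Number of shared peaks (vertical axis) by the Col-0 bp of peak over the second gene (horizontal axis, 100-bp bins), with the division at 750 bp as a dashed line. The 605 peaks at 200 to under 300 bp and the 318 at 1200 to under 1300 bp form separate modes. The lower mode is cut off by the 200-bp minimum of the rule.

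Shallow peaks were about as long as single-gene peaks, and deep peaks were longer. The division by bp on the second gene builds in part of this, and of the second gene's own bp and coverage. The median Col-0 length was 1824.5 bp for shallow peaks, 2851.5 bp for deep peaks and 1810 bp for single-gene peaks. On the second gene, the median was 335 bp in shallow and 1201.75 bp in deep peaks. On the leading gene the medians were close, at 1328 and 1434.75 bp, against 1448 bp on the gene of a single-gene peak. Of the body of the leading gene, a median of 59.4% was covered in both kinds, while the second gene was covered over 13.2% in shallow and 57.4% in deep peaks.

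Most shared peaks did not reach beyond the outer ends of their leading genes. In 2660 shared peaks (71.6%) both mean Col-0 edges lay between the start of the leading gene with the lower coordinates and the end of the other. An edge in the gap between these genes also counts here, and an edge in a further gene outside them does not. The second gene was covered over at least 95% of its body in 497 peaks, the leading gene in 688 and both in 117. The annotated bodies of the leading genes overlapped in 758 peaks (20.4%), in 114 of which 1 gene lay inside the other. There a bp of peak counts for both genes, so the division of the peak between them cannot be read. Of the 4 most even divisions between genes with symbols, 3 were of this kind (DMS3/emb1796, APRR8/TRM9 and LINC4/ATBCAT-5). The remaining one was the peak over RUS2 and ADF6, an actin depolymerizing factor, genes that lie 153 bp apart. RUS2 was covered over 1397 and 1305 bp for Col-0, 1365 and 1360 bp for jmj28-2, and 1332 and 1403 bp for atx1/2. ADF6 was covered over 1382 and 1325 bp, 1382 and 1326 bp, and 1305 and 1292 bp in the same order. Over RUS2 the genotypes overlapped, and over ADF6 both atx1/2 values were the lowest.

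Deep peaks also stood higher in the authors' score, the value that ranks peaks in a list. The median percentile of the Col-0 score within its own list was 85.6 for deep, 43.9 for shallow and 49.8 for single-gene peaks. Score and length were not separated from each other. The 3 highest were the peaks of AT3G14067/CAX9, RBL/PSBTN and AT4G38670/GRP2, all at a percentile of 99.8. The 3 lowest were those of DCL2/AT3G03305 at 0.469, SUMM2/AT1G12290 at 1.49 and AT5G09240/KIWI at 1.66. DCL2 encodes a Dicer-like enzyme of small-RNA production and SUMM2 an immune receptor.

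Neighbouring genes shared a peak more often when they lay close together, which is built into a rule with an upper length limit. Of 23909 pairs of neighbouring protein-coding genes that do not overlap, 2894 (12.1%) were the leading genes of a shared peak. The share was 39.9% at a gap under 100 bp, 42.3% at 100 to under 200 bp and 28.1% at 200 to under 300 bp. It was 12.5% at 300 to under 500 bp, 6.23% at 500 to under 750 bp, and 0.329% at 1000 to under 2000 bp. The median gap between the leading genes of all shared peaks was 97 bp, with overlapping genes counted as negative gaps.

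Peaks across wider gaps were more often deep. Among shared peaks with exactly 2 genes that do not overlap, the deep share was 33.1% of 1042 with a gap under 100 bp and 39.3% of 415 with 200 to under 300 bp. It was 68.2% of 255 peaks at 300 to under 500 bp and 71.8% of 131 at 500 to under 750 bp. Above that it was 42.1% of 38 peaks, and 1 of 16 at 1000 to under 2000 bp, a bin too thin to read. Up to a gap of 750 bp the bp over the leading gene barely moved between bins, with medians of 1348 to 1429 bp, while the whole peak rose from 1955.25 to 3146 bp. The gap is part of the peak, so the whole length and the gap are not independent.

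**Figure D2:**
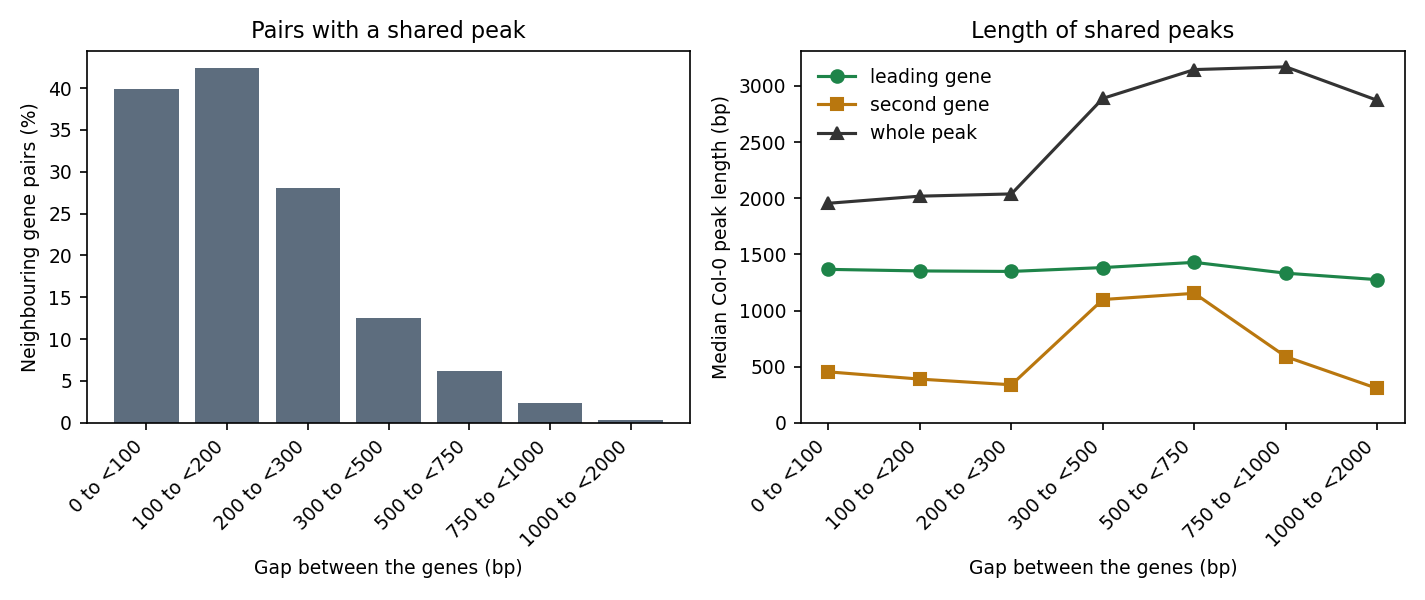
Left, percent of neighbouring non-overlapping gene pairs that lead a shared peak, by the gap between the genes in bp. Right, for shared peaks with exactly 2 genes, median Col-0 length in bp of the whole peak (triangles), over the leading gene (circles) and over the second gene (squares). The leading gene stays at medians of 1275 to 1429 bp in every bin, and the second gene is highest at 300 to under 750 bp.

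At the limits of the length window, the shortest shared peak was that of AT2G45630/AT2G45620 with a Col-0 mean of 1306 bp, and just outside lay ICU2/ALC at 1294.5 bp and AT2G25740/AT2G25737 at 1295.5 bp. On the long side the peaks of AT3G14730/AT3G14740/AT3G14750, AT1G72275/AT1G72270/ERO1 and GLR5/AXL were the longest, and AT3G02360/AT3G02370 at 4000 bp and PHOT2/ROS3 at 4008.5 bp lay just outside. The peak of AT1G72275/AT1G72270/ERO1 differed between replicates, at 3423 and 4568 bp for Col-0, 2786 and 2862 bp for jmj28-2, and 2183 and 2216 bp for atx1/2. Its mutant lengths lay below both Col-0 values, and its length was not called in either mutant.

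In 23 shared peaks both leading genes had the same letter stem in their symbols, as tandem copies of a gene family do. The 6 longest of these were GLR3.5/GLR5 of the glutamate receptor-like family, CYP705A21/CYP705A20 of the cytochrome P450 family, CXE13/CXE12, CRK11/CRK12 of the cysteine-rich receptor-like kinases, PGIP2/PGIP1 of the polygalacturonase-inhibiting proteins, and 2 loci both named RIC7. Reads of near-identical copies can be placed on either one, so values of these pairs are uncertain. PGIP2 and PGIP1 were covered over the whole of their annotated bodies, 1251 and 1238 bp, in all 6 libraries. GLR5 lay in 2 shared peaks, with GLR3.5 at one end and AXL at the other.

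By the names in the gene table, 39 of the 75 ribosomal protein genes with a region lay in a shared peak (52.0%), as did 13 of 20 histone genes and 9 of 12 pentatricopeptide repeat genes. The numbers were 10 of 37 for WRKY transcription factors and 7 of 35 for receptor-like proteins. Over all protein-coding genes with a region, 7160 of 17739 (40.4%) lay in a shared peak. These counts are given without a test, and many family members carry no family name in the table.

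The median length of shared peaks was slightly lower in both mutant genotypes than in Col-0. The median length over the 3715 shared peaks was 2139 and 2165 bp for Col-0, 2058 and 2089 bp for jmj28-2, and 2090 and 2067 bp for atx1/2. Both Col-0 values lay above all 4 mutant values, and the mutants overlapped each other. Peak by peak, the median change was -34 bp in jmj28-2 and -29 bp in atx1/2. These medians were -25 and -14 bp in single-gene peaks, whose library medians were 1801 and 1818 bp for Col-0, 1772 and 1789 bp for jmj28-2, and 1788 and 1786 bp for atx1/2. The edges of replicate libraries lay a median of 47 bp apart for Col-0, 43 bp for jmj28-2 and 42 bp for atx1/2, which is more than the median change. The Col-0 window took part in choosing the peaks, and with 2 libraries per genotype a two-sided exact permutation test cannot go below 0.333, so these medians carry no test.

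**Figure D3:**
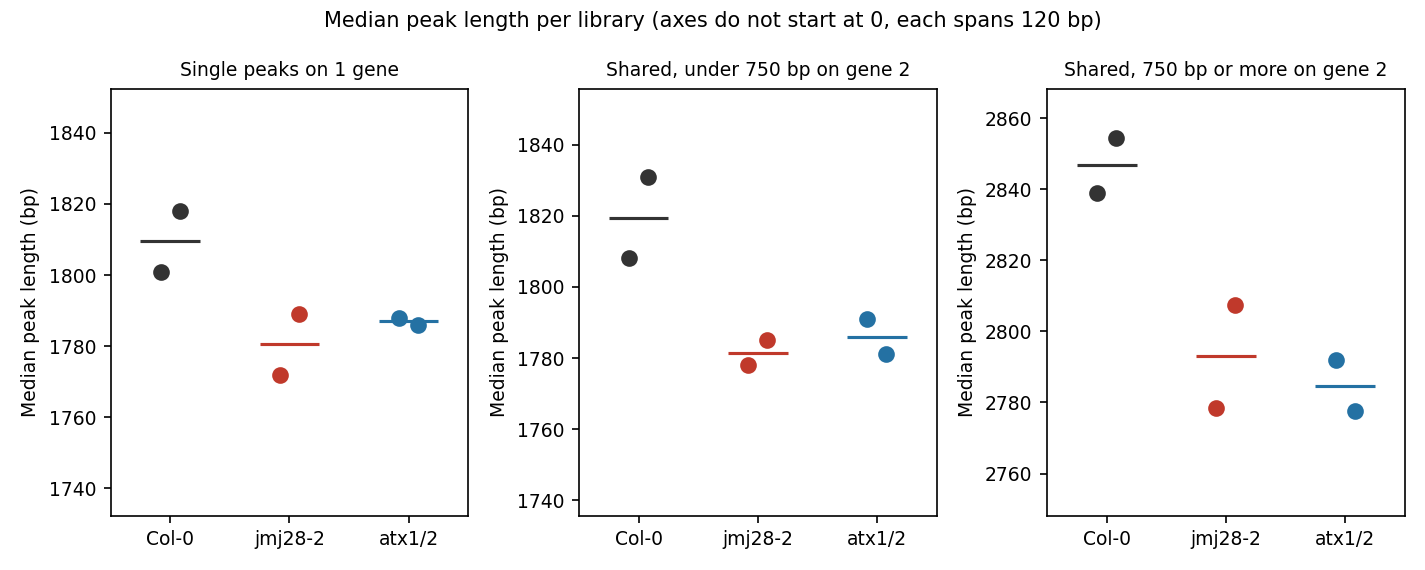
Median peak length in bp per library (points) and its mean per genotype (bars), for single-gene peaks, shallow shared peaks (under 750 bp on gene 2) and deep shared peaks (750 bp or more). The axes do not start at 0 and each spans 120 bp. Both Col-0 points lie above the 4 mutant points in each panel.

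The median bp of peak over either gene was also slightly lower in the mutants, again with no test. Over the leading gene the mean of the 2 library medians was 1375 ± 7.07 bp in Col-0 (SD, n = 2), 1354 ± 4.24 bp in jmj28-2 and 1356.5 ± 0.707 bp in atx1/2. Over the second gene of deep peaks it was 1202 ± 4.24 bp, 1182.25 ± 0.354 bp and 1178.25 ± 1.06 bp. Over the second gene of shallow peaks it was 331 ± 4.24 bp, 317.5 ± 7.78 bp and 320.5 ± 3.54 bp. The median share of a peak's bp on its leading gene was 65.0% ± 0.335 in Col-0, 66.9% ± 0.246 in jmj28-2 and 66.7% ± 0.193 in atx1/2, so the replicate values did not overlap between Col-0 and either mutant. The number of shared peaks with at least 750 bp on the second gene was 1644 and 1636 in Col-0, 1557 and 1581 in jmj28-2, and 1581 and 1570 in atx1/2. Because the division was set on Col-0 values, such counts can move in the other libraries for that reason alone.

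A mutant was called shorter or longer at a region by limma, on log2(bp + 200) over 14394 regions with all 6 libraries in 1 fit and a Benjamini-Hochberg adjusted p below 0.05. In jmj28-2, 20 shared peaks were shorter and 2 longer than in Col-0. Over all regions tested, 0.98% were shorter and 0.459% longer. The 22 calls are 0.592% of the shared peaks, below the 1.44% of all regions, which include regions without a peak in some libraries. In the 8519 single-gene peaks there were 9 calls (0.106%). Their genes were also counted on the merged region. A peak that reached 200 bp of a neighbouring gene in 1 genotype alone was therefore not among them. The rule thus lowers the share of calls in single-gene peaks, here and in atx1/2. Within the 3096 shared peaks that covered 2 genes in every library, 6 were shorter and 1 longer (0.226%). In atx1/2, 20 shared peaks were shorter and 5 longer, beside 0.875% and 0.98% of all regions. The 25 calls are 0.673% of the shared peaks, against 1.85% of all regions and 0.0939% of the single-gene peaks. The fit of the 13483 regions called 44, of which 23 were shared peaks. Of the 3096, 10 were shorter and 2 longer. Between the mutants, 5 shared peaks were shorter in atx1/2 than in jmj28-2 and 8 were longer, beside 0.472% and 1.11% of all regions, or 1.58% in either direction. The fit of the 13483 regions called 26 here, of which 8 were shared peaks. Of the 3096, 5 were shorter and 2 longer, so this balance turned. After centring of the libraries this split was 7 shorter and 7 longer. The Col-0 libraries are the reference of both mutants, so their calls are not independent of each other. Without atx1/2 replicate 1 the atx1/2 count fell from 25 to 15, with 8 shorter and 7 longer, and without replicate 2 it fell to 16, with 6 shorter and 10 longer. The predominance of shorter peaks in atx1/2 was therefore not kept without either library. Between the mutants, 8 were shorter and 5 longer without jmj28-2 replicate 1. With peaks under a score of 100 counted as absent, 30 were shorter and 21 longer in jmj28-2, 26 and 28 in atx1/2, and 13 and 22 between the mutants, so shorter peaks did not predominate in atx1/2 there either.

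Lengths that did not overlap between the 2 genotypes were far more frequent than calls. In jmj28-2, 1042 shared peaks (28.0%) were shorter in both libraries than in both Col-0 libraries, beside 26.6% of all regions with 1 peak per library, and 340 (9.15%) were longer, beside 10.4%. In atx1/2 the numbers were 1025 (27.6%, beside 23.6%) and 378 (10.2%, beside 13.1%). These shares are near the background in jmj28-2. The median log2 change over the shared peaks was -0.02 in both mutants, and over all regions it was -0.02 in jmj28-2 and -0.01 in atx1/2.

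Edge positions showed over which gene a peak had moved. They were tested in bp with limma over the 25910 edges of all regions with 1 peak per library. In jmj28-2, 17 edges of shared peaks had moved inward and 2 outward, 19 of 7430 (0.256%). Of all edges tested, 0.108% were called, 0.0888% inward and 0.0193% outward. In atx1/2, 19 had moved inward and 6 outward (0.336%), where all edges gave 0.131%, with 0.0965% inward and 0.0347% outward. Between the mutants, 4 had moved inward and 5 outward in atx1/2 (0.121%), where all edges gave 0.0656%, with 0.0309% inward and 0.0347% outward. In the 3096 peaks with 2 genes in every library the counts were 6 (0.0969%), 13 (0.21%) and 5 (0.0807%) of 6192. The first and the last of these shares are near the background. Between the mutants the 5 edges were 4 inward and 1 outward. Without Col-0 replicate 1 or 2 the jmj28-2 count was 44 or 47, without jmj28-2 replicate 1 or 2 it was 7 or 11, and without either atx1/2 library it was 8. Without jmj28-2 replicate 1 it was 4 inward and 3 outward. The atx1/2 count was 44 or 57 without Col-0 replicate 1 or 2. Without atx1/2 replicate 1 it was 10 inward and 13 outward, and without replicate 2 it was 8 inward and 9 outward, so inward shifts did not predominate there. The count between the mutants was 15 without jmj28-2 replicate 2 and 14 without atx1/2 replicate 1. Of the edges called with all libraries, 3 inward and 1 outward edges in jmj28-2, and 7 inward and 4 outward edges in atx1/2, were called in each of the 6 fits that left out 1 library.

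Called edges moved much further than replicate edges lay apart, which a test against the spread of replicates selects for. The inward shifts were 452 to 1883.5 bp in jmj28-2 and 359.5 to 1838.5 bp in atx1/2. In no case was the opposite edge of the peak also called. Its shift was at most 157.5 bp in jmj28-2 and 270.5 bp in atx1/2 beside an inward edge. Few edges were called at all, so this does not show that the opposite edges stayed in place. The moved stretch lay over the second or a later gene in 17 of 17 inward shifts in jmj28-2 and in 14 of 19 in atx1/2, and over the leading gene in the other 5. A gene that lost most of its peak in 1 genotype tends to be ranked second for that reason, so these counts are a description. After the shift, 1 gene was left with 200 bp or more in both mutant libraries in 8 of the 17 and in 7 of the 19.

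**Figure D4:**
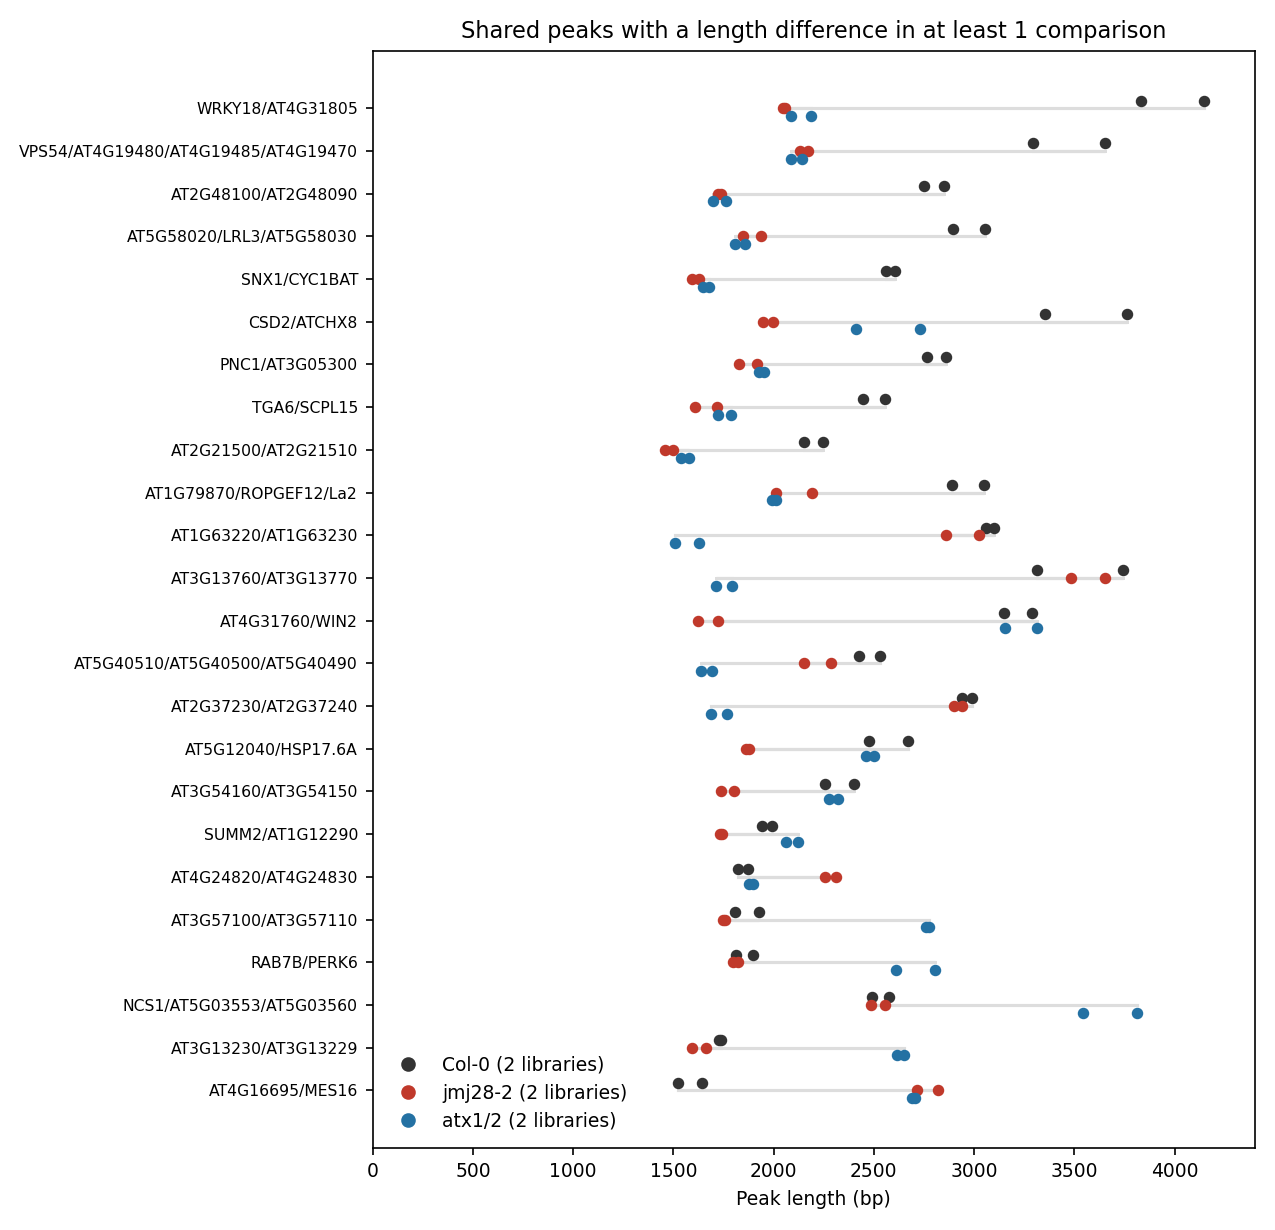
Peak length in bp (horizontal axis) in each of the 6 libraries for the named shared peaks with a length called in at least 1 of the 3 comparisons, ordered by their change. Grey lines span the 6 values. The peak of WRKY18/AT4G31805 lies at 3831 to 4147 bp in Col-0 and at 2049 to 2184 bp in both mutants, and that of AT4G16695/MES16 is longer in both mutants.

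Named below are 24 shared peaks with a called length. In 8 of them each library by itself covered 2 genes over 200 bp, and their tests are given. In the other 16 at least 1 library did not, so their lengths took part in making them shared peaks and are given as a description with no p. Of these 16, 12 met the rule for 2 genes in both Col-0 libraries, and 4 did not.

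Among the 8, the peak of PNC1, a peroxisomal adenine nucleotide carrier, and AT3G05300 (chr3:1506372-1509231) was shorter in both mutants. It measured 2765 and 2860 bp for Col-0, 1829 and 1919 bp for jmj28-2, and 1950 and 1926 bp for atx1/2. On the log2 scale it differed by -0.54 ± 0.03 (SE) in jmj28-2 (limma adjusted p = 0.00409) and -0.49 ± 0.03 in atx1/2 (adjusted p = 0.00452). AT3G05300 was covered over 588 bp in both Col-0 libraries and over 355 to 455 bp in the mutants. The jmj28-2 call held in all 6 fits that left out 1 library, and the atx1/2 call was lost without atx1/2 replicate 1 or 2, with an adjusted p of up to 0.06.

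Another 4 of the 8 were shorter in atx1/2 and not called in jmj28-2, and in 3 of them the stretch lost lay over the leading gene. The peak of AT1G63220 and AT1G63230 (chr1:23448539-23451666) measured 3060 and 3097 bp for Col-0, 2858 and 3026 bp for jmj28-2, and 1628 and 1506 bp for atx1/2. AT1G63220 was covered over 1719 bp in each Col-0 and jmj28-2 library and over 591 and 543 bp in atx1/2, and AT1G63230 over 934 to 1107 bp in all 6. The log2 change in atx1/2 was -0.89 ± 0.05 against Col-0 (limma adjusted p = 0.00159) and -0.83 ± 0.05 against jmj28-2 (adjusted p = 0.0024).

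The peak of AT2G37230 and AT2G37240 (chr2:15637063-15640081) measured 2988 and 2938 bp, 2900 and 2941 bp, and 1767 and 1689 bp in the same order. AT2G37230 was covered over 2625 to 2706 bp in the Col-0 and jmj28-2 libraries and 1512 and 1436 bp in atx1/2. The fitted log2 difference was -0.71 ± 0.03 against Col-0 (limma adjusted p = 0.000621) and -0.69 ± 0.03 against jmj28-2 (adjusted p = 0.000775). The calls at these 2 peaks held in all 6 fits that left out 1 library.

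The peak of AT3G13760 and AT3G13770 (chr3:4517177-4520943) measured 3312 and 3742 bp for Col-0, 3651 and 3482 bp for jmj28-2, and 1710 and 1794 bp for atx1/2. AT3G13760 was covered over 2132 bp in each Col-0 and jmj28-2 library and over 668 and 728 bp in atx1/2. In log2 units the length of the peak differed by -0.93 ± 0.07 against Col-0 (limma adjusted p = 0.00559) and -0.95 ± 0.07 against jmj28-2 (adjusted p = 0.00578). Without atx1/2 replicate 1 or 2 both calls were lost, with adjusted p of up to 0.0735 and 0.0771.

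The peak of AT5G40510, AT5G40500 and AT5G40490 (chr5:16227354-16229883) measured 2530 and 2426 bp, 2151 and 2284 bp, and 1636 and 1694 bp. AT5G40500, its leading gene, was covered over 923 bp in all 6 libraries, and AT5G40510 over 57 and 128 bp in atx1/2 and 560 to 924 bp in the others. The change in peak length was -0.52 ± 0.04 on the log2 scale against Col-0 (limma adjusted p = 0.00836, up to 0.0886 and lost without Col-0 replicate 1 or either atx1/2 library). Against jmj28-2 it was -0.37 ± 0.04 (limma adjusted p = 0.0369), lost without any 1 library, with adjusted p of up to 0.247, and lost at 0.0653 when testing was restricted to regions present in all 6 libraries. In each of these 4 peaks both atx1/2 values lay below all values of the other genotypes.

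The last 3 of the 8 were longer in 1 mutant. The peak of AT3G13230 and AT3G13229 (chr3:4268518-4271215) measured 1735 and 1726 bp for Col-0, 1593 and 1664 bp for jmj28-2, and 2617 and 2652 bp for atx1/2. AT3G13229 was covered over 202 to 215 bp in the Col-0 and jmj28-2 libraries and over 1123 and 1174 bp in atx1/2. On the log2 scale the whole peak differed by 0.55 ± 0.03 against Col-0 (limma adjusted p = 0.00145) and 0.63 ± 0.03 against jmj28-2 (adjusted p = 0.000926). Leaving out any 1 library kept both calls.

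The peak of NCS1, a nucleobase transporter, with AT5G03553 and AT5G03560 (chr5:896790-900639) measured 2573 and 2492 bp for Col-0, 2484 and 2554 bp for jmj28-2, and 3545 and 3814 bp for atx1/2. AT5G03553 had 0 bp in the Col-0 and jmj28-2 libraries and 665 and 901 bp in atx1/2, while NCS1 was covered over 2134 bp in all 6. The fitted log2 difference was 0.50 ± 0.04 against Col-0 (limma adjusted p = 0.0117, up to 0.0884 and lost without either Col-0 library). Against jmj28-2 it was 0.51 ± 0.04 (limma adjusted p = 0.0127, up to 0.0864 and lost without any 1 Col-0 or jmj28-2 library).

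The peak of AT4G24820 and AT4G24830 (chr4:12791296-12793704) was longer in jmj28-2, at 2313 and 2258 bp beside 1820 and 1874 bp for Col-0 and 1879 and 1899 bp for atx1/2. By this peak AT4G24830 was covered over 878 and 827 bp in jmj28-2 and over 343 to 410 bp in the other libraries. Other peaks also cover part of AT4G24830, and over all of them its fitted log2 difference in jmj28-2 was 0.18 against Col-0. In log2 units the length differed by 0.28 ± 0.03 (limma adjusted p = 0.0235) against Col-0, and -0.25 ± 0.03 in atx1/2 against jmj28-2 (adjusted p = 0.0334). Both calls were lost without any 1 of the 6 libraries, with adjusted p of up to 0.123 and 0.215. They were also lost, at 0.0604 and 0.124, when testing was restricted to regions present in all 6 libraries.

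Among the 16 was the peak of SNX1, a sorting nexin of endosomal trafficking, and CYC1BAT, a B-type mitotic cyclin (chr5:1857606-1860211), which counts as shared through Col-0. Its length was 2559 and 2605 bp for Col-0, 1630 and 1593 bp for jmj28-2, and 1649 and 1678 bp for atx1/2. The log2 difference from Col-0 was -0.62 ± 0.03 in jmj28-2 and -0.58 ± 0.03 in atx1/2. Most of it lay over CYC1BAT, where the shared peak covered 933 and 932 bp for Col-0, 7 and 0 bp for jmj28-2, and 4 and 23 bp for atx1/2. SNX1 was covered over 1251 and 1298 bp, 1248 and 1218 bp, and 1270 and 1280 bp in the same order. Over SNX1 both jmj28-2 values lay below all others, and atx1/2 lay between the Col-0 values. A second region also covers part of CYC1BAT, so the gene as a whole was not without peak.

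The peak of WRKY18, a transcription factor of the defence response, and AT4G31805 (chr4:15382785-15386931) was likewise shared through Col-0. It measured 4147 and 3831 bp for Col-0, 2049 and 2058 bp for jmj28-2, and 2085 and 2184 bp for atx1/2, a log2 difference of -0.89 ± 0.05 in jmj28-2 and -0.84 ± 0.05 in atx1/2. AT4G31805 was covered over 1652 and 1442 bp for Col-0 and over 0 bp in each of the 4 mutant libraries. WRKY18 was covered over 2316 and 2210 bp for Col-0 and 2049 to 2184 bp in the mutants, again with no overlap between Col-0 and the mutants.

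LRL3, a basic helix-loop-helix transcription factor of root hair development, shares its peak with AT5G58020 and AT5G58030 (chr5:23483928-23486990). The length was 3055 and 2894 bp for Col-0, 1845 and 1937 bp for jmj28-2, and 1805 and 1857 bp for atx1/2. LRL3 had 1087 and 941 bp for Col-0 and 0 bp in each of the 4 mutant libraries, while AT5G58020 had 1323 bp in all 6. LRL3 was thus a gene of the peak through Col-0.

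The peak of AT2G48100 and AT2G48090 (chr2:19669009-19671857) measured 2748 and 2849 bp for Col-0, 1721 and 1736 bp for jmj28-2, and 1697 and 1760 bp for atx1/2. AT2G48090 was covered over 1170 and 1189 bp for Col-0, 175 and 169 bp for jmj28-2, and 151 and 209 bp for atx1/2. The peak of AT2G21500 and AT2G21510 (chr2:9209055-9211342) measured 2153 and 2246 bp, 1499 and 1456 bp, and 1576 and 1536 bp, and AT2G21510 was covered over 585 and 720 bp, 50 and 23 bp, and 58 and 42 bp. In both peaks every mutant value lay below both Col-0 values.

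Of the same kind was the peak of TGA6, a bZIP factor of the salicylic acid response, and SCPL15, a serine carboxypeptidase-like protein (chr3:3904176-3906782). It measured 2445 and 2555 bp for Col-0, 1608 and 1716 bp for jmj28-2, and 1724 and 1788 bp for atx1/2, and SCPL15 was covered over 723 and 817 bp, 12 and 7 bp, and 34 and 0 bp. The peak over VPS54, a subunit of a vesicle-tethering complex, and AT4G19480, AT4G19485 and AT4G19470 (chr4:10613837-10617737) measured 3295 and 3651 bp, 2130 and 2173 bp, and 2088 and 2140 bp. AT4G19480 and AT4G19485 were covered over 513 or 537 bp in Col-0 and 0 to 53 bp in the mutants. The peak over AT1G79870, ROPGEF12 and La2 (chr1:30043226-30046408) measured 2888 and 3049 bp, 2192 and 2012 bp, and 1993 and 2012 bp, with ROPGEF12 covered over 876 and 1072 bp in Col-0 and 6 to 85 bp in the mutants. Both mutants lay below Col-0 at these 3 peaks. Other peaks also cover part of ROPGEF12, so the bp given are not all of its coverage. Over all its peaks, the fitted log2 difference of ROPGEF12 from Col-0 was -0.94 in jmj28-2 and -1.08 in atx1/2.

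**Figure D5:**
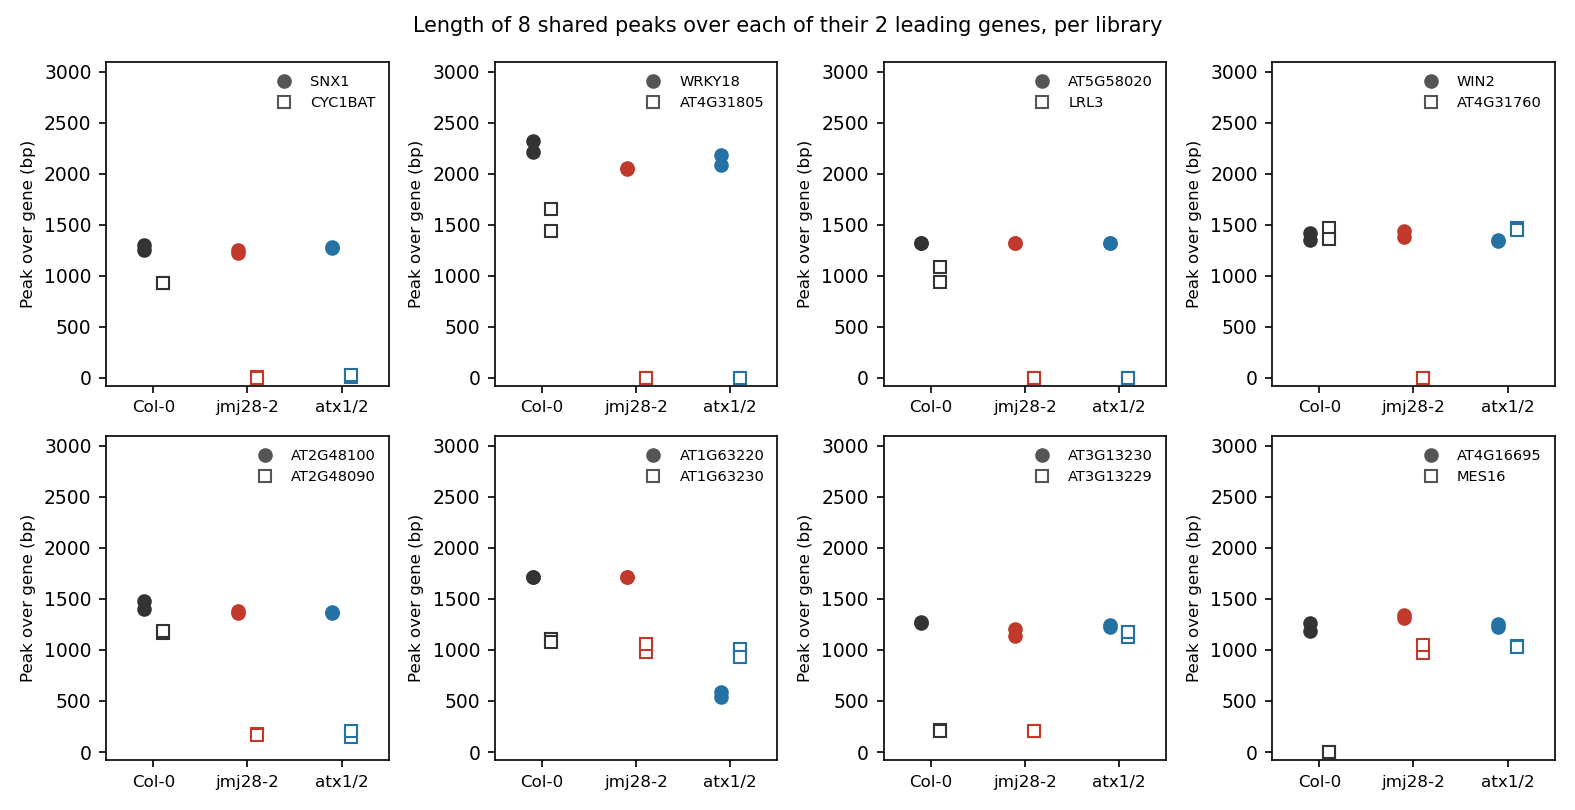
Bp of peak over each of the 2 leading genes of 8 shared peaks, per library and genotype. Filled circles are the leading gene and open squares the second gene. CYC1BAT, AT4G31805, LRL3 and AT2G48090 are at 0 to 209 bp in both mutants, AT4G31760 is at 0 in jmj28-2 alone, and MES16 is at 0 in Col-0.

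The peak of AT4G31760 and WIN2, a protein phosphatase (chr4:15366451-15369854), was low in jmj28-2 and met the rule through Col-0 and atx1/2. It measured 3288 and 3147 bp for Col-0, 1621 and 1723 bp for jmj28-2, and 3314 and 3156 bp for atx1/2. AT4G31760 was covered over 1465 and 1363 bp, 0 and 0 bp, and 1465 and 1447 bp, while WIN2 was covered over 1342 to 1442 bp in all 6. The log2 difference was -0.87 ± 0.05 in jmj28-2 against Col-0 and 0.01 ± 0.05 in atx1/2 against Col-0.

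A similar order was seen at 3 further peaks of the 16, each lowest in both jmj28-2 libraries. The peak of AT5G12040 and HSP17.6A, a small heat shock protein (chr5:3883969-3886640), measured 2672 and 2477 bp for Col-0, 1862 and 1879 bp for jmj28-2, and 2499 and 2463 bp for atx1/2, and HSP17.6A was covered over 870 and 752 bp, 198 and 211 bp, and 723 and 719 bp. The peak of AT3G54160 and AT3G54150 (chr3:20052132-20054605) measured 2256 and 2403 bp, 1736 and 1800 bp, and 2274 and 2322 bp. The peak of CSD2, a copper/zinc superoxide dismutase, and ATCHX8, a cation/proton exchanger (chr2:12012206-12016018), measured 3352 and 3765 bp, 1948 and 1999 bp, and 2413 and 2729 bp. ATCHX8 was covered over 1142 and 1534 bp, 0 and 0 bp, and 234 and 554 bp.

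The remaining 4 of the 16 did not meet the rule for 2 genes in both Col-0 libraries. That of AT4G16695 and MES16, a methyl esterase (chr4:9392604-9395425), measured 1525 and 1642 bp for Col-0, 2715 and 2822 bp for jmj28-2, and 2691 and 2707 bp for atx1/2. MES16 was covered over 0 bp in both Col-0 libraries, 975 and 1047 bp for jmj28-2, and 1036 and 1027 bp for atx1/2, so the peak is shared through the mutants. The peak of RAB7B, a Rab GTPase, and PERK6, a receptor-like kinase (chr3:6482820-6485639), measured 1899 and 1813 bp, 1823 and 1796 bp, and 2804 and 2611 bp, and is shared through atx1/2. By this peak PERK6 was covered over 151 and 110 bp, 100 and 37 bp, and 939 and 955 bp. Other peaks also cover part of PERK6, and over all of them its fitted log2 difference in atx1/2 was 0.83 against Col-0. The peak of AT3G57100 and AT3G57110 (chr3:21132908-21135778) is also shared through atx1/2, at 1809 and 1925 bp, 1756 and 1745 bp, and 2762 and 2773 bp, with a score at a percentile of 3.99 in Col-0. AT3G57110 was covered over 7 and 57 bp, 47 and 0 bp, and 757 and 757 bp. The peak of SUMM2 and AT1G12290 (chr1:4175979-4178123) measured 1990 and 1941 bp, 1743 and 1734 bp, and 2123 and 2064 bp. It reached 185 and 207 bp of AT1G12290 in atx1/2 and 52 to 108 bp in the other libraries. Other peaks also cover part of AT1G12290.

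Counted per gene, 33 genes of shared peaks had less peak over their body in jmj28-2 than in Col-0 and 6 had more, of 7140 tested (0.546%), beside 1.28% of all 17971 genes tested, 0.863% with less and 0.417% with more. In atx1/2, 39 had less and 11 more (0.7%), beside 1.52% of all genes, 0.79% with less and 0.735% with more. Between the mutants 11 had less and 18 more in atx1/2 (0.406%), beside 1.32% of all genes, 0.412% with less and 0.907% with more. Without jmj28-2 replicate 2 the last count was 47 in place of 29, and without atx1/2 replicate 1 it was 12 with less and 10 with more. With only peaks of score 100 or more, the counts were 83, 90 and 69. All 3 shares lie below those of all genes. All genes include those of regions without a peak in some libraries, which no shared peak can be, so the shares are not of like sets. Genes of shared peaks can still have 0 bp of peak in a genotype, as LRL3 had in both mutants. Why the shares differ was not tested. These counts include genes of the 619 peaks in which at least 1 library did not reach 200 bp on 2 genes. Some of those genes had to differ between genotypes, and gene counts for the 3096 alone were not made. On simulated data the test per gene called more unchanged genes than its threshold allows.

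Of 16 clock genes, 5 lay in a shared peak, and PRR7 lay in 2. LHY, a morning-phased transcription factor, shared a peak with PPa1 and had 196 to 287 bp of it. LHY, GI and ZTL also carry a separate region of their own. GI, a regulator of flowering and of the clock, had 360 to 429 bp of a peak whose leading gene was PFL, a ribosomal protein. PRR7, a pseudo-response regulator, had 1372 to 1470 bp of the peak it shared with RHL2 and 189 to 291 bp of that with CDL1. ZTL, a clock F-box protein, had 509 and 658 bp of its peak with AT5G57370 for Col-0, 381 and 363 bp for jmj28-2, and 354 and 366 bp for atx1/2. Its mutant values lay below both Col-0 values. Of all regions with 1 peak per library, 26.6% were shorter in both jmj28-2 libraries than in Col-0, and 23.6% in both atx1/2 libraries. LNK1 (AT5G64170) shared a peak with AT5G64180 and was covered over 1211 to 1559 bp.

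An unadjusted p below 0.05 was reached by 7.42% of all regions in jmj28-2 against Col-0, 8.3% in atx1/2 against Col-0 and 6.86% between the mutants. None of the 6 shared peaks with a clock gene was called in length by limma in any comparison. At an unadjusted p below 0.05 there was 1 of 6 in jmj28-2 against Col-0, 1 of 6 in atx1/2 against Col-0 and 0 of 6 between the mutants, and the lowest adjusted p was 0.297, 0.415 and 0.838. The median log2 change of the 6 was -0.04 in jmj28-2 and -0.03 in atx1/2, beside -0.02 and -0.01 over all regions.

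Of 18 flowering genes, 2 lay in a shared peak. CO, the photoperiod-dependent activator of flowering, was under the same peak as bZIP3 and AT5G15843. CO was covered over 855 and 844 bp for Col-0, 768 and 755 bp for jmj28-2, and 708 and 768 bp for atx1/2. The mutant values lay below both Col-0 values. Over bZIP3 the order was reversed, at 942 and 937 bp for Col-0, 1048 and 991 bp for jmj28-2, and 954 and 999 bp for atx1/2. The whole peak differed from Col-0 by a log2 of -0.004 in jmj28-2 and -0.04 in atx1/2. Of all regions with 1 peak per library, 26.6% were shorter in both jmj28-2 libraries than in Col-0, and 23.6% in both atx1/2 libraries. No such share was made for genes. LFY, a floral meristem regulator, had 565 and 552 bp for Col-0, 626 and 279 bp for jmj28-2, and 136 and 123 bp for atx1/2, of a peak led by AT5G61865. Both atx1/2 values lay below all others.

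Neither flowering peak was called in length by limma in any comparison. At an unadjusted p below 0.05 there were 0 of 2 in jmj28-2, 1 of 2 in atx1/2 and 0 of 2 between the mutants, and the lowest adjusted p was 0.923, 0.577 and 0.768. FT, TSF, FD, AP1 and VIN3 had no region, and FLC, SOC1 and SVP had single-gene peaks.

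Of 11 genes of H3K4 methylation, 2 lay in a shared peak. ATX2 was covered over 1664 and 1652 bp for Col-0, 1604 and 1560 bp for jmj28-2, and 1626 and 1633 bp for atx1/2, of a peak that reached 315 to 378 bp into SPPL5. RBL, a subunit of the methyltransferase complex, had 1714 and 1733 bp, 1665 and 1673 bp, and 1706 and 1702 bp, and PSBTN, a subunit of photosystem II, was covered over 795 bp in all 6. Values of both mutants lay below those of Col-0 at ATX2 and at RBL, at RBL in atx1/2 by little. Of all regions with 1 peak per library, 26.6% were shorter in both jmj28-2 libraries than in Col-0, and 23.6% in both atx1/2 libraries. Replicate edges of shared peaks lay a median of 47 bp apart for Col-0. Neither peak was called in length by limma. At an unadjusted p below 0.05 there was 1 of 2 in jmj28-2 and 0 of 2 in the other comparisons, and the lowest adjusted p was 0.631, 0.772 and 0.838.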

How the data were processed

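Each H3K4me3 library came as a table of peak positions in bp with a peak score, as deposited by the authors. Per the submitters' processing notes, the tools and build included MACS 1.4, Bowtie2 2.2.8, deepTools 2.4.1, TAIR10 and ChIPseeker, without roles. The control library of the peak calls is not given in the sources used here. The deposited scores were used only to rank peaks within a list and to set a minimum of 100.

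Peaks on chromosomes 1 to 5 that shared 1 bp were merged, and 13 peaks elsewhere were left out. Genes came from a RefSeq table of TAIR10.1, which has 27444 protein-coding genes and no strand. In 94 of 100 windows of 1000 kb, genes and peaks matched best at a shift under 400 bp. With steps of 200 bp, 27 windows matched best at no shift, so overlaps near the 200-bp minimum are uncertain. Orientation, exons and sequence were not used.

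Lengths, edge positions and bp per gene were each fitted in limma 3.58.1 (under R 4.3.3), with all 6 libraries in 1 fit. Each p was adjusted over the whole table. A pseudocount of 200 bp understates log2 changes of short stretches. The procedure was tested on simulated data, where the test per gene called more unchanged genes than its threshold allows, so genes are given mainly by their bp. Tables used Python 3.11.15, pandas 2.3.3 and numpy 2.4.6, and plots matplotlib 3.10.9.

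The members and gene lists were chosen with earlier results of these data known. Named were the peaks with called lengths (up to 10 per comparison and direction) or called edges (up to 5), those with list genes, and the extremes in length, gene number, evenness, score and shared symbol stem.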

Additional observations from a re-analysis of the deposited data

How the results depend on the processing

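Other pseudocounts, centring, equal peak numbers and other variance settings left every count of shared peaks with a called length within 1.5 times the value given, and no named change reversed its sign under any setting tried. Testing only regions with a peak in all 6 libraries gave 8 calls between the mutants in place of 13. With a score minimum of 100, the length counts were 51 in jmj28-2, 54 in atx1/2 and 35 between the mutants, and the gene counts 83, 90 and 69. The median length was then 2230, 2151 and 2163 bp in Col-0, jmj28-2 and atx1/2, and the share on the leading gene 63.3%. At 500 bp of overlap per gene there were 2186 shared peaks with medians of 2683.25, 2621.75 and 2624.75 bp and a share of 52.8%, while 1 bp gave 4673. Of 46 named length calls, 7 were lost when testing was restricted to regions present in all 6 libraries, 2 after centring and 1 with other variance settings. Leaving out any 1 library lost more of the 46 than any of these settings, and most were lost without an atx1/2 library. The cause of these changes was not tested.

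Leaving out 1 library at a time gave length counts of 15 to 32 in jmj28-2, 15 to 35 in atx1/2 and 10 to 16 between the mutants. The edge counts were 7 to 47, 17 to 57 and 8 to 15, and the gene counts 28 to 55, 36 to 63 and 22 to 47. In these fits the lone library of a genotype is assumed to vary like the others. The median lengths per library were 2139 to 2165 bp, 2058 to 2089 bp and 2067 to 2090 bp.

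In length and edge position, libraries with the same replicate number hardly deviated together (correlations of -0.034 to 0.068), and the main fits used no pairing. Such correlations cannot exclude that same-numbered libraries were grown or processed together. With the replicate block the length counts were 13, 17 and 8, the edge counts 6, 14 and 7, and the gene counts 16, 25 and 14, and 10 of the 46 calls were lost. The planned comparisons by gene orientation were not run, as the table has no strand.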
